A study of Homo sapiens with 30 samples.

Results

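The BCL2 family decides whether the outer mitochondrial membrane of a cell is permeabilised, the step that releases cytochrome c and starts the intrinsic route of apoptosis. The 10 genes described here were chosen by name: the survival genes BCL2L1 (BCL-xL), MCL1, BCL2 and BCL2A1 (Bfl-1), the pore-forming effectors BAX and BAK1, and the BH3-only genes BID, BCL2L11 (BIM), PMAIP1 (NOXA) and BBC3 (PUMA). Each of the 10 symbols mapped to 1 of the 60483 gene records, and all 10 passed the filter on low counts that left 18424 genes for testing. They were measured by RNA-seq in 30 cultures of PANC-1, a human pancreatic ductal adenocarcinoma line of epithelial origin that the labels give as wild type, grown as 3D tumoroids in medium with low serum. All cells came from this single line.

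The cultures formed 10 groups of 3. Tumoroids without synthetic cells (DSLB-free) and hybrid tumoroids with uncoupled synthetic cells (plain DSLB) were the negative controls. A DSLB is an oil droplet wrapped in a supported lipid bilayer. In the other 8 groups recombinant ectodomains were coupled to this bilayer: PD-1 by itself, or PD-1 with a second lymphocyte surface protein, namely TIGIT, LAG3, ICOS, CTLA4, CD40L, CD27 or CD2. Since every coupled group carried PD-1, the part of PD-1 and the part of a protein coat as such cannot be told apart. The labels call the cultures biological replicates and the methods describe them as parallel, so the p-values measure the spread between parallel cultures of a single line.

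Survival proteins of this family bind and hold back the effectors and the BH3-only proteins, and cells are thought to survive as long as their binding capacity exceeds the BH3-only load. BAX and BAK1 form the membrane pore once freed. BID and BCL2L11 are activators that can engage survival proteins and effectors alike, PMAIP1 binds mainly MCL1 and BCL2A1, and BBC3 binds all survival members. PMAIP1 and BBC3 are textbook targets of p53 and are also known to be induced in the integrated stress response, and BCL2A1 is a known target of NF-kB and of CD40 signaling in B cells. Transcript level is the only readout here, and none of these proteins was measured in these libraries.

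Promoter windows show what lies directly upstream of PMAIP1 and BBC3, the genes that differed most often, and of BCL2A1, the CD40 target. They are RefSeq sequence on GRCh38.p14, run 5′ to 3′ towards the annotated start, and stop where any GENCODE v44 transcript of the gene begins. The windows are chr18:59899746-59899995 (plus strand) for PMAIP1, chr19:47232767-47232917 (minus strand) for BBC3 and chr15:79971197-79971446 (minus strand) for BCL2A1. Capitals mark a match to any of 6 searched motifs on either strand. One was TGACGT, the core of a cyclic AMP response element to which factors of the CREB and ATF family can bind. Another was TGATGNAA, the core of the composite element of C/EBP and ATF proteins. The short promoter elements were TATAAA, known from core promoters with a fixed start, and the Sp1-type box of promoters rich in CpG, which reads GGGCGG. The p53 decamer and the NF-kB decamer were the others.
PMAIP1: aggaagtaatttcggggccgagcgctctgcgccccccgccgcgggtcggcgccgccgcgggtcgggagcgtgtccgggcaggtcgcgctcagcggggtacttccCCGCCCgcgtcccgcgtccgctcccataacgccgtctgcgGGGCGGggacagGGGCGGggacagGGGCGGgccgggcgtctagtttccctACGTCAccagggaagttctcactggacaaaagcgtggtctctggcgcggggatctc
BBC3: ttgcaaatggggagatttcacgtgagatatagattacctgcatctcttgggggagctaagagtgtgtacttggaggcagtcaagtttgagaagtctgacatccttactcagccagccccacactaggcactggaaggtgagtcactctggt
BCL2A1: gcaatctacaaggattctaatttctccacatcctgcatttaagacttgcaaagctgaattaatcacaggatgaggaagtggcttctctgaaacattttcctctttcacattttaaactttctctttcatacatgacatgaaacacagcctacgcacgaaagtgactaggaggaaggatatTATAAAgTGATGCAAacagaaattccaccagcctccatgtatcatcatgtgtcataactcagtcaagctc
The PMAIP1 window was rich in G and C (72.8%) and held 4 GGGCGG boxes and 1 TGACGT on the opposite strand. The BCL2A1 window (38.8% G and C) held TATAAA followed by TGATGNAA, and the BBC3 window (49%) held no match. These motifs did not overlap each other. In all 35114 RefSeq windows of 300 bases, 7.98% held TGACGT, 3.62% held TGATGNAA, 11.5% held TATAAA and 45% held GGGCGG. The p53 decamer stood in 6.63% and the NF-kB decamer in 9.08%. Of the 9 members with a window, which are all but MCL1, the p53 decamer was found only for BAK1 and the NF-kB decamer for 0. The matches are a description of these letters and were not tested as binding sites.

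The summed expected counts were 21.9 to 60.5 M per library (median 40.6 M). Epithelial markers were strongly expressed in all 30 libraries, with a median of 3160 TPM for KRT8 and 56 TPM for EPCAM. Their summed level was 4560 to 5430 TPM in the 6 control libraries and 5840 to 6610 TPM in the 24 libraries with PD-1. The 6 leukocyte markers summed to 1.37 to 2.97 TPM, and CD3E was at 0 in every library. Endothelial markers summed to 0.05 to 0.39 TPM. The fibroblast list, led by COL1A1, summed to 300 to 403 TPM in the controls and 131 to 250 TPM with PD-1, while DCN and PDGFRA had medians of 0.115 and 0.01 TPM. Within the epithelial list KRT8 and KRT19 rose and CDH1 fell against plain DSLB in 8 of 8 coupled groups, and the monocyte marker CD14, at no more than 1.6 TPM, rose in 8 of 8. These marker levels moved with PD-1 presentation, and their part in the results below was not tested. Mitochondrially encoded transcripts took a mean of 3.54% (PD-1) to 5.97% (PD-1/CD27) of the counts of a group. Replicate 2 of DSLB-free, replicate 1 of PD-1, replicate 2 of PD-1/CTLA4 and replicate 3 of PD-1/LAG3 stood apart from the other 2 libraries of their groups, and results were also computed without these 4.

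Among the survival genes, nearly all transcript in PANC-1 tumoroids came from BCL2L1 and MCL1. Levels between genes are given as deposited TPM, which is scaled for transcript length. BCL2L1 (chr20:31664452-31723989, minus strand, hg38) had 73.6 to 106 TPM, with a median of 89.3 TPM over the 30 libraries. MCL1 (chr1:150560895-150579738, minus strand) had a median of 75.5 TPM. BCL2A1 (chr15:79960892-79971196, minus strand) reached only 1.02 TPM in the median, and BCL2 itself (chr18:63123346-63320128, minus strand) 0.09 TPM. BCL2L1 made up a median of 52.8% and MCL1 46.4% of the summed TPM of the 4 survival genes, whereas BCL2A1 gave 0.647% and BCL2 0.0538%.

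Both effectors were present. BAX (chr19:48954815-48961798, plus strand) had a median of 61.2 TPM and BAK1 (chr6:33572547-33580293, minus strand) 18.9 TPM, so that BAX held 74.2 to 81.6% of the pair. Among the BH3-only genes BID (chr22:17734138-17774770, minus strand) led with 55.6 TPM, followed by BCL2L11 (chr2:111119378-111168444, plus strand) with 33.2 TPM, BBC3 (chr19:47220822-47232766, minus strand) with 11.1 TPM and PMAIP1 (chr18:59899996-59904305, plus strand) with 8.62 TPM. The ratio of the summed TPM of the 4 survival genes to that of the other 6 was 0.932 to 1.02 in the 6 controls (median 0.994) and 0.743 to 0.928 in the 24 libraries with PD-1 (median 0.87), without overlap. This ratio is a description on the TPM scale, on which MCL1 differed more than in CPM, as given below with the MCL1 values. BCL2L1 also had a lower TPM median with PD-1 (86.9 TPM) than in the controls (95.9 TPM). So had BAX, BAK1, BID and BCL2L11, while PMAIP1 and BBC3 had higher medians. Such ratios were not computed for other sets of genes, so the gap cannot be called particular to the members. RSEM had assigned fractional reads, the sign of reads shared with another record, to BAK1 in 21 libraries and to BCL2A1 in 1, with a posterior standard deviation of at most 1.64 reads.

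**Figure D1:**
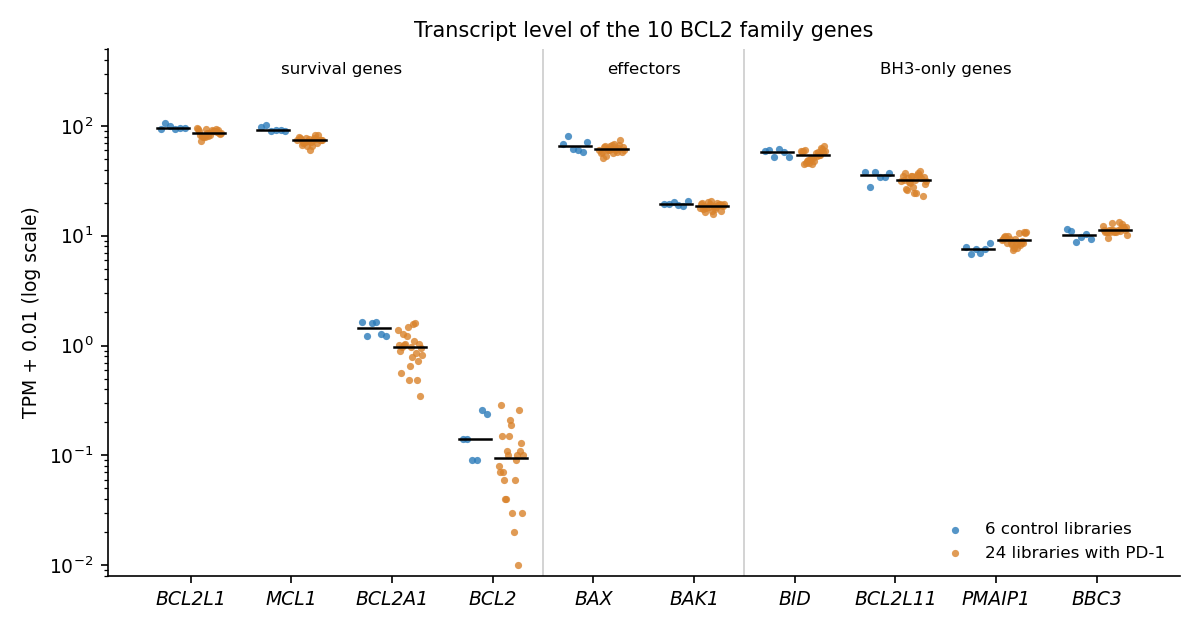
Transcript level of the 10 genes in TPM (0.01 added, log scale), grouped as survival genes, effectors and BH3-only genes. Each point is 1 library, the 6 controls and the 24 libraries with PD-1 are drawn side by side, and black lines are medians. The medians were 89.3 TPM for BCL2L1, 75.5 TPM for MCL1 and 1.02 TPM for BCL2A1, and BCL2 lay between 0 and 0.28 TPM.

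For most members the 10 group means lay within 1.25-fold of each other. Within a gene, levels are given as CPM (counts scaled to library size with TMM factors), and n is 3 per group throughout. The highest group mean exceeded the lowest by 1.08-fold for BAK1, 1.09-fold for BAX, 1.12-fold for MCL1, 1.16-fold for BCL2L11, 1.19-fold for BCL2L1 and 1.25-fold for BID. PMAIP1 (1.61-fold), BBC3 (1.43-fold), BCL2A1 (1.89-fold) and BCL2 (4.77-fold) spread further. When the 10 groups were ordered by their mean, the libraries of neighbouring groups overlapped in 9 of 9 neighbour pairs for 8 members and in 8 of 9 for BID and PMAIP1. The spread of group means and these overlaps were not computed over all genes, so they cannot be called particular to the members.

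In the joint test of any difference among the 10 groups (edgeR quasi-likelihood test, Benjamini-Hochberg adjustment over all 18424 genes), 3 of the 10 members differed. These were PMAIP1 (adjusted p = 2.81e-05), BBC3 (adjusted p = 0.0129) and BID (adjusted p = 0.028), all of them BH3-only genes. The same test called 41% of all genes, so 3 of 10 was no more than the background. BCL2L1 (adjusted p = 0.055) lay just outside the threshold of 0.05, and the 2 effectors were farthest from it, with adjusted p = 0.977 for BAX and 0.709 for BAK1. Without the 4 libraries that stood apart, BCL2L1 and MCL1 were called as well.

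PMAIP1, whose product NOXA neutralises MCL1, was higher in hybrids with PD-1. The DSLB-free libraries held 7.21, 7.85 and 8.27 CPM and the plain DSLB libraries 7.68, 8.64 and 9.49 CPM. With PD-1 alone the values were 10.6, 10.8 and 11 CPM. All 3 PD-1 libraries lay above all 6 control libraries, and they differed from each other by less than the controls did. Co-presentation gave 10.5, 11.4 and 11.6 CPM with CD2, 9.49, 10.9 and 11.7 CPM with CD27, and 9.83, 10.3 and 11.3 CPM with LAG3. It gave 9.83, 10.2 and 10.9 CPM with CTLA4 and 9.55, 9.84 and 11 CPM with ICOS. The extremes among the coupled groups were PD-1/TIGIT, with 12.2, 12.5 and 12.7 CPM, and PD-1/CD40L, with 8.63, 9.36 and 9.97 CPM. PD-1/TIGIT lay above every library of the other groups. PD-1/CD40L overlapped with plain DSLB, and so, barely, did PD-1/CD27 (lowest library 9.494 CPM, highest plain DSLB library 9.495 CPM). Of the 24 libraries with PD-1, 21 exceeded all 6 controls.

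Against plain DSLB, PMAIP1 rose in 6 of the 8 coupled groups by edgeR. The log2 fold change was 0.33 with PD-1 alone (95% interval 0.15 to 0.52, adjusted p = 0.0084) and ranged from 0.26 with PD-1/CTLA4 (adjusted p = 0.0251) to 0.54 with PD-1/TIGIT (interval 0.36 to 0.72, adjusted p = 7.72e-05) among the groups called. In PD-1/ICOS it was 0.24 (adjusted p = 0.0601), with no overlap between the libraries. In PD-1/CD40L it was 0.13 (interval -0.06 to 0.31, adjusted p = 0.351). The call was lost in 8 of 17 alternatives for PD-1/CTLA4 and in 6 of 17 for PD-1/LAG3, and in 0 of 17 for PD-1/CD2 and PD-1/TIGIT. With DSLB-free tumoroids as the reference, a choice made after the data were seen, PMAIP1 rose in all 8.

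BBC3, whose product PUMA binds every survival protein of the family, rose in 8 of 8 coupled groups against plain DSLB. The plain DSLB libraries held 8.54, 9.14 and 9.74 CPM, and the DSLB-free libraries 8.24, 10.4 and 11.3 CPM. PD-1 alone gave 11.9, 12.6 and 14.0 CPM. The plain DSLB values were tight and low, whereas the DSLB-free values spread widely and reached into the range of the coupled groups. LAG3 beside PD-1 gave 12.2, 12.7 and 14.3 CPM, CTLA4 11.1, 12.7 and 13.4 CPM, and CD40L 10.8, 12.2 and 13.7 CPM. With ICOS the values were 11, 11.8 and 13.9 CPM, with TIGIT 10.8, 11.4 and 13.1 CPM, with CD2 10.2, 11.3 and 12.5 CPM, and with CD27 11.6, 11.6 and 11.7 CPM. All 24 libraries with PD-1 exceeded all 3 plain DSLB libraries, and 18 of them exceeded all 6 controls.

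The log2 fold change of BBC3 over plain DSLB ran from 0.31 with PD-1/CD2 (95% interval 0.07 to 0.55, edgeR adjusted p = 0.0458) to 0.51 with PD-1/LAG3 (0.27 to 0.75, adjusted p = 0.00158). The PD-1/CD2 call was lost in 11 of 17 alternatives, with log2 fold changes down to 0.10 and adjusted p up to 0.503, the PD-1/CD27 call in 8 of 17 and the PD-1/TIGIT call in 6 of 17, whereas the PD-1/LAG3 call held in all 17. With PD-1 alone it was 0.49 (0.25 to 0.73, adjusted p = 0.00354). Against DSLB-free tumoroids the direction was the same but smaller, 0.19 to 0.39, and BBC3 was called in 3 of 8 groups, PD-1, PD-1/CTLA4 and PD-1/LAG3. On the length-scaled log2(TPM + 0.5) scale, where the median of all genes itself shifted by up to -0.13 between coupled groups and plain DSLB, BBC3 was called in 2 of 8 groups and PMAIP1 in 3 of 8.

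**Figure D2:**
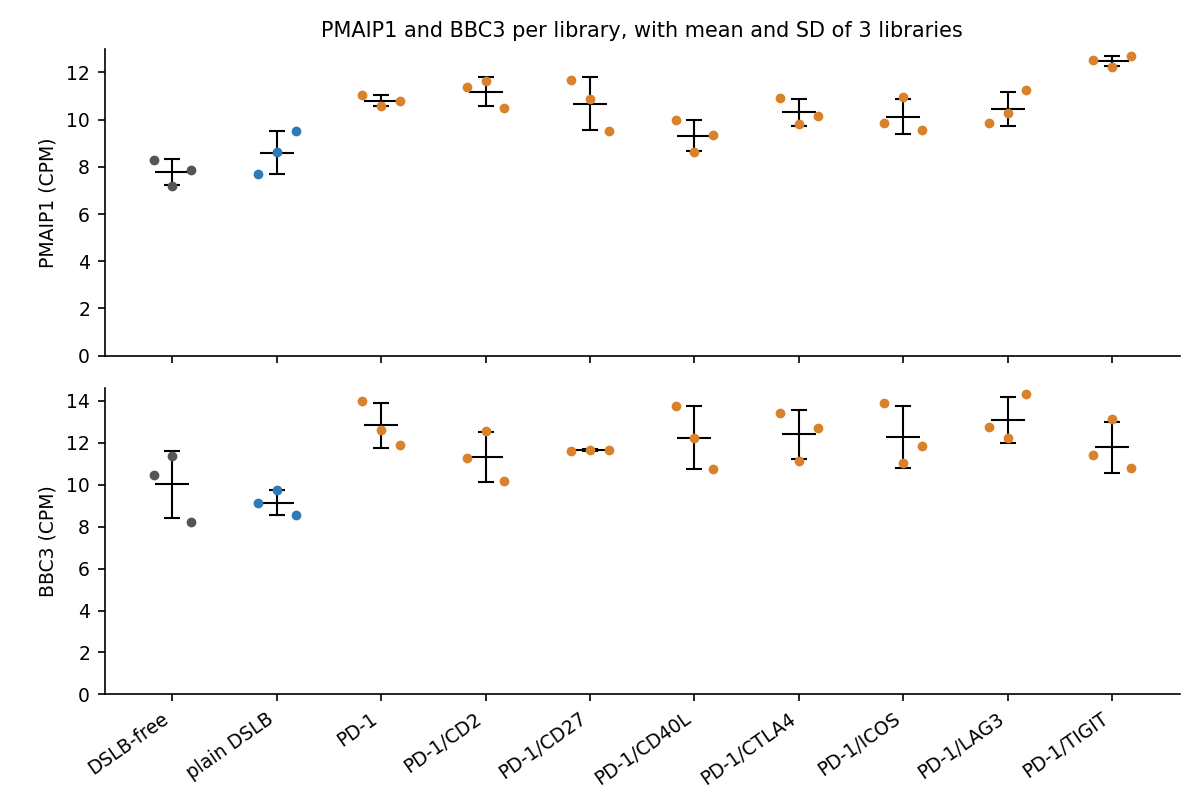
PMAIP1 (top) and BBC3 (bottom) in CPM by group, with 1 point per library and the mean and SD of 3 libraries in black (DSLB-free grey, plain DSLB blue, groups with PD-1 orange). PMAIP1 sat at 7.21 to 9.49 CPM in the controls and at 8.63 to 12.7 CPM with PD-1, and BBC3 at 8.24 to 11.3 and 10.2 to 14.3 CPM.

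These counts were read against all genes. The share of genes called against plain DSLB was 22% for PD-1, 29.6% for PD-1/CD2, 23.8% for PD-1/CD27 and 25.5% for PD-1/CD40L. For PD-1/CTLA4 it was 34.2%, and PD-1/ICOS (19.6%), PD-1/LAG3 (30.3%) and PD-1/TIGIT (22.5%) followed. The share called higher was 11.3, 14.1, 12.4, 13.2, 17, 9.81, 16.2 and 10.9% in the same order. Of the 10 members, 2 rose with PD-1, PD-1/CD2, PD-1/CD27, PD-1/CTLA4, PD-1/LAG3 and PD-1/TIGIT, and 1 rose with PD-1/CD40L and PD-1/ICOS. With 10 members a single gene makes 10%, so 2 genes higher (20%) stand above the share of all genes called higher by less than 1 gene in each of the 6 groups. Calls in either direction, 1 to 3 of the 10, stand near the background. The median log2 fold change of the 10 members lay between -0.04 and 0.09 in the 8 comparisons, beside 0.00 to 0.03 for all genes. All 8 comparisons share the 3 plain DSLB libraries, so their calls are not independent of each other.

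The mean of the 8 coupled groups was also set against the mean of both control groups, a comparison added after the data were seen. PMAIP1 was higher with PD-1 (10.7 against 8.19 CPM), by 0.38 ± 0.051 on the log2 scale (fit and its standard error, adjusted p = 4.98e-07 with edgeR), and so was BBC3 (12.2 against 9.57 CPM), by 0.35 ± 0.0664 (adjusted p = 7.99e-05). Across the genome 50.4% of genes were called in this comparison and 25.9% were higher. In 39 alternatives each, both genes kept their direction and their call, with log2 fold changes of 0.25 to 0.42 for PMAIP1 and 0.17 to 0.40 for BBC3. The single-group calls were less firm: in 48 fits against plain DSLB that each left out 1 library, BBC3 was called in 32 and PMAIP1 in 28. Leaving out replicate 1 of plain DSLB ended the BBC3 call in PD-1/TIGIT, PD-1/CD27 and PD-1/CD2 and the PMAIP1 call in PD-1, PD-1/CD27, PD-1/CTLA4 and PD-1/LAG3.

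**Figure D3:**
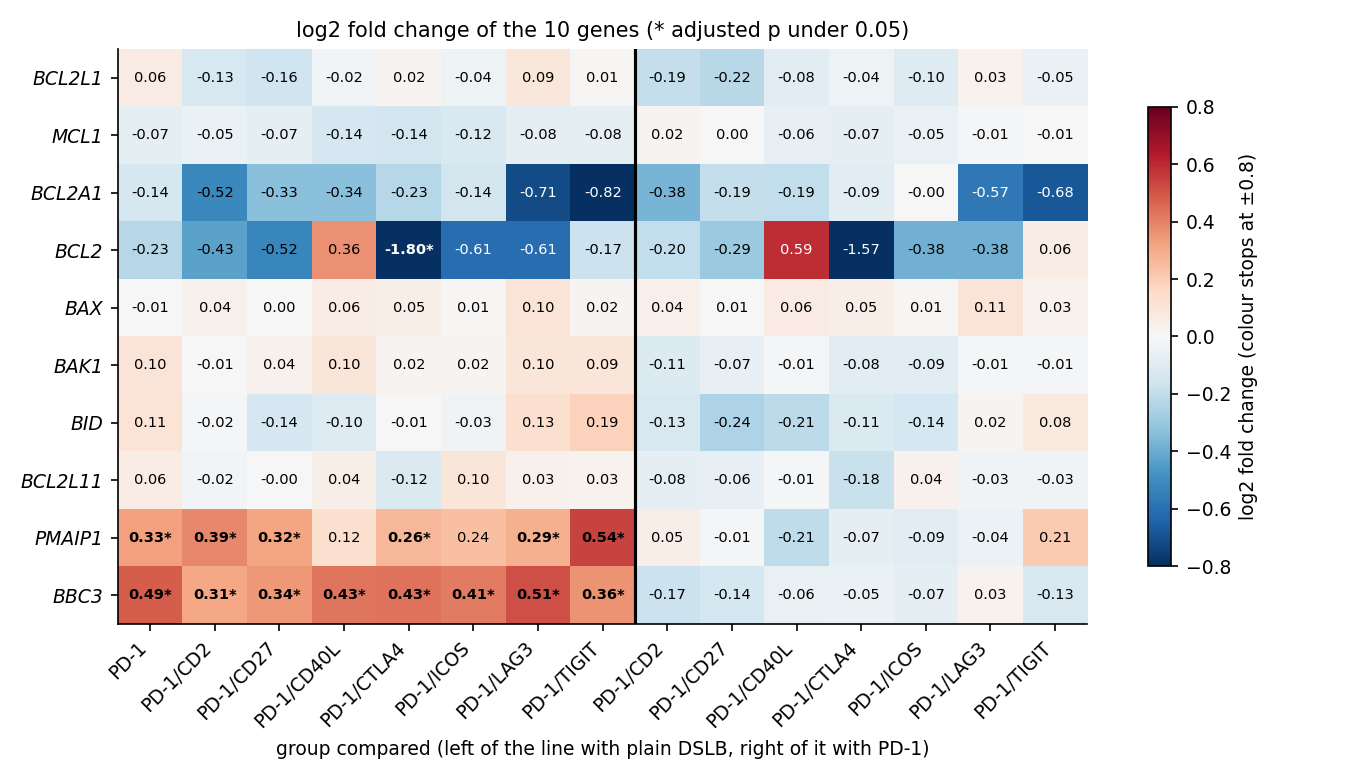
log2 fold change of the 10 genes (rows) in the 8 coupled groups against plain DSLB (left of the line) and in the 7 co-presenting groups against PD-1 alone (right). An asterisk marks an adjusted p under 0.05, and the colours stop at 0.8 in either direction. BBC3 was called in 8 and PMAIP1 in 6 of the left columns, BCL2 in 1, and no gene in the right columns.

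MCL1, the short-lived survival protein that NOXA binds, was slightly lower in the coupled groups on some scales. Its levels were 174 to 189 CPM in the 6 controls and 158 to 194 CPM in the 24 libraries with PD-1, of which 16 lay below all controls. The group means were 184 ± 8.29 CPM (SD) without DSLBs and 182 ± 5.33 CPM with plain DSLBs, the highest of the 10. They were 176 ± 2.56 CPM with PD-1/CD2, 173 ± 4.33 CPM with PD-1/CD27, 173 ± 2.68 CPM with PD-1, 172 ± 1.89 CPM with PD-1/TIGIT and 172 ± 19.5 CPM with PD-1/LAG3. The lowest were PD-1/ICOS (167 ± 6.66 CPM), PD-1/CD40L (166 ± 8.39 CPM) and PD-1/CTLA4 (164 ± 3.38 CPM). Every group overlapped with its neighbours in this order. Against plain DSLB the log2 fold change was between -0.15 and -0.05 in all 8 comparisons and none was called with edgeR. On log2(TPM + 0.5) all 8 were called lower (-0.46 to -0.22). Without the 4 libraries that stood apart 4 were called lower, and 1 was with DESeq2, a mean of at least 100 counts, the compared libraries only and DSLB-free as the reference. PD-1/CD40L without its replicate 3, PD-1/CTLA4 without its replicate 2 and PD-1/LAG3 without its replicate 3 were also called lower. With the length trend removed the 8 values lay on both sides of 0 (-0.07 to 0.08) and none was called. In the comparison of the 8 coupled groups with both controls the difference was -0.10 (interval -0.17 to -0.03, adjusted p = 0.0132), but it was -0.01 (adjusted p = 0.928) once the trend of fold change with gene length was removed in each library. It also missed the threshold without replicate 1 or 3 of DSLB-free or replicate 2 of plain DSLB (adjusted p = 0.0579, 0.051 and 0.0595). On the TPM scale all 24 libraries with PD-1 (60.6 to 82.2 TPM) lay below all 6 controls (89.2 to 102 TPM), with a log2 difference of -0.35 (limma, adjusted p = 1.21e-07), while the median of all genes shifted by -0.10 on that scale. The isoform-weighted length that RSEM gave MCL1 had a median of 3267 bases in the controls and 3414 bases with PD-1, and a longer length lowers TPM at equal counts. That gap in length covers only a part of the change from the CPM to the TPM value, and the TPM fit also differs in scaling and model. The cause of the change was not tested.

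BCL2L1, the most abundant survival transcript, showed no called difference in edgeR. Its lowest group means were PD-1/CD27 (117 ± 5.65 CPM, SD) and PD-1/CD2 (120 ± 4.72 CPM), and its highest were PD-1/LAG3 (139 ± 7.58 CPM) and PD-1 (137 ± 4.96 CPM). The controls lay between, with 133 ± 11.7 CPM without DSLBs and 131 ± 2.96 CPM with plain DSLBs. Against PD-1, the log2 fold change was -0.22 with PD-1/CD27 (interval -0.36 to -0.08, adjusted p = 0.0735) and -0.19 with PD-1/CD2 (interval -0.33 to -0.05, adjusted p = 0.152), with no overlap of the libraries in either. DESeq2 on the same libraries called the PD-1/CD27 difference. Against plain DSLB, PD-1/CD27 was called lower on log2(TPM + 0.5), without the libraries that stood apart, with the compared libraries only and with DSLB-free as the reference, and PD-1/CD2 on log2(TPM + 0.5).

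BCL2, the founding member, was barely transcribed, at 0 to 21 counts per library. It was lower in PD-1/CTLA4, with 0.0752, 0.0917 and 0.0987 CPM, than in plain DSLB, with 0.290, 0.318 and 0.343 CPM. These sets did not overlap, but they rested on very few reads in each library. The log2 fold change was -1.80 (interval -3.13 to -0.47, edgeR adjusted p = 0.0323), and the call was lost in 11 of 16 alternatives, among them limma-voom (adjusted p = 0.0645), DSLB-free as the reference (adjusted p = 0.0588) and each of the 6 fits that left out 1 of these libraries (adjusted p = 0.0575 to 0.0927). The highest group was PD-1/CD40L, at 0.422 ± 0.157 CPM (SD), with a log2 fold change of 1.06 against the 6 other co-presenting groups (adjusted p = 0.379).

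**Figure D4:**
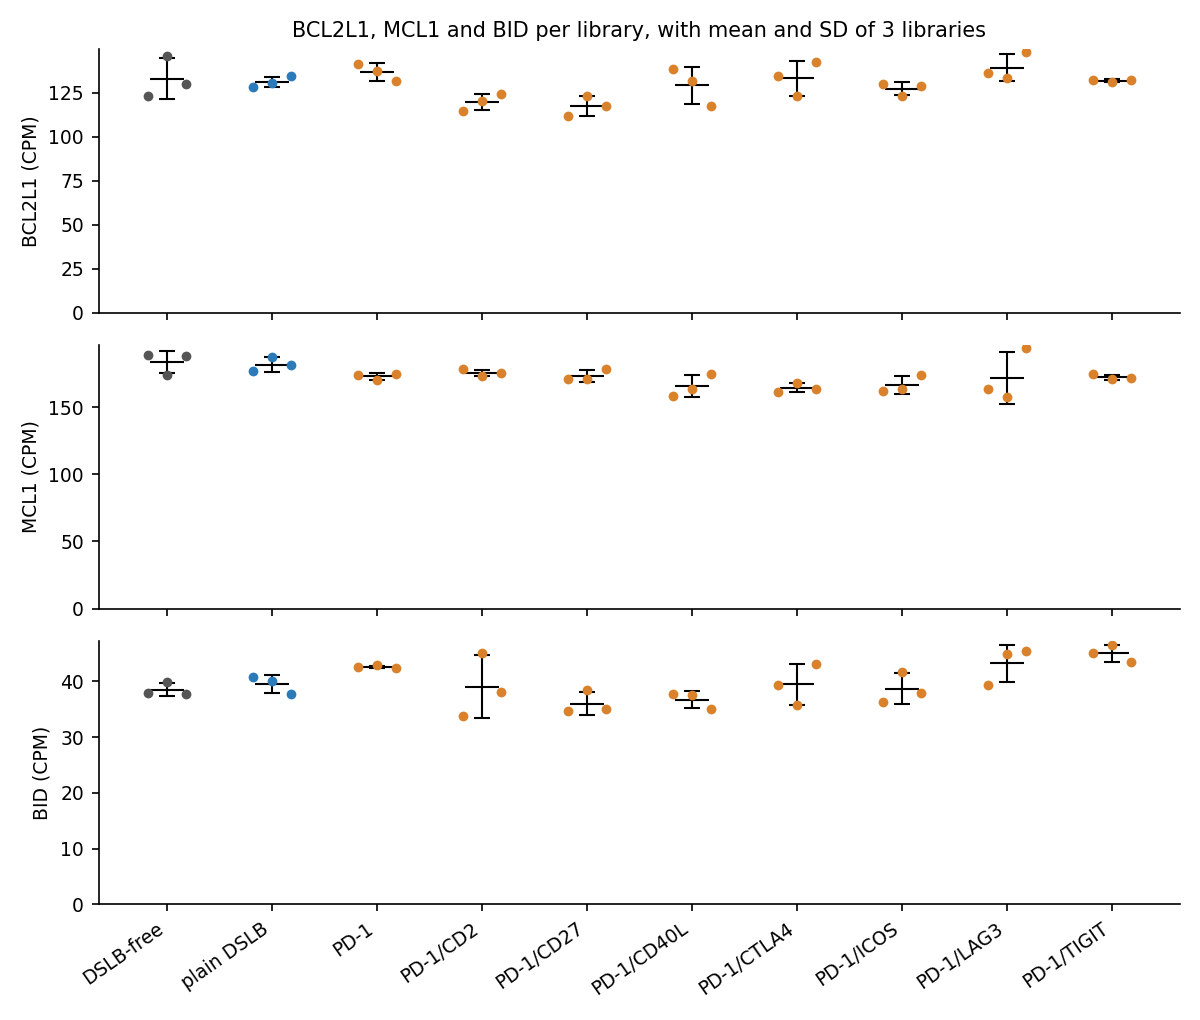
BCL2L1 (top), MCL1 (middle) and BID (bottom) in CPM by group, with 1 point per library and the mean and SD of 3 libraries in black. Group means of BCL2L1 ran from 117 to 139 CPM, of MCL1 from 164 to 184 CPM and of BID from 36 to 45 CPM, and nearly all neighbouring groups overlapped.

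BCL2A1 was examined because CD40 ligation is known to induce it and PD-1/CD40L was among the groups. The paper reports raised Bfl-1, by quantitative PCR and western blot, in Panc-1 tumoroids whose DSLBs carried CD40L. Its account of that experiment names no PD-1 on the DSLBs, whereas here CD40L was presented only beside PD-1. The results are therefore not a like-for-like comparison. In these libraries BCL2A1 was not called higher in PD-1/CD40L. The PD-1/CD40L libraries held 41, 8 and 9 reads, which is 0.827, 0.303 and 0.417 CPM. The PD-1 libraries held 0.750, 0.631 and 0.496 CPM and the plain DSLB libraries 0.768, 0.658 and 0.648 CPM. A single PD-1/CD40L library was high, the other 2 were below every PD-1 and control library. The log2 fold change against PD-1 was -0.19 with a 95% interval of -0.96 to 0.57 (adjusted p = 0.88), and against plain DSLB it was -0.34 (interval -1.11 to 0.44, adjusted p = 0.565). Against the mean of the 6 other co-presenting groups it was 0.12 (interval -0.48 to 0.73, adjusted p = 0.93). That last comparison called 0 of the 10 members and 0.0271% of all genes. At an unadjusted p under 0.05 there were 2 members, beside 1811 of all 18424 genes. Leaving out replicate 1 of PD-1/CD40L moved the difference from PD-1 to -0.81 and leaving out replicate 2 moved it to 0.06, without a call in either case. At 8 to 43 reads per library a change within these intervals could not be detected.

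In order of the group means, BCL2A1 was at 0.740 ± 0.0679 CPM without DSLBs, 0.692 ± 0.0667 CPM with plain DSLBs, 0.632 ± 0.141 CPM with PD-1/ICOS, 0.625 ± 0.127 CPM with PD-1 and 0.596 ± 0.253 CPM with PD-1/CTLA4. PD-1/CD27 (0.550 ± 0.0754 CPM), PD-1/CD40L (0.516 ± 0.276 CPM), PD-1/CD2 (0.488 ± 0.201 CPM), PD-1/LAG3 (0.416 ± 0.19 CPM) and PD-1/TIGIT (0.392 ± 0.15 CPM) followed. Both control groups stood first, and every group overlapped with its neighbours. Across the study, BCL2A1 had 0.648 to 0.796 CPM in the 6 controls and 0.222 to 0.877 CPM in the 24 libraries with PD-1, of which 18 lay below all controls. The comparison of the 8 coupled groups with both controls gave a log2 fold change of -0.45 (interval -0.86 to -0.04, edgeR adjusted p = 0.0612), which did not pass. It passed in limma-voom, on log2(TPM + 0.5), with the length trend removed, without the 4 libraries that stood apart, and without any of replicate 1 of PD-1, replicate 2 or 3 of PD-1/CD2, replicate 1 of PD-1/CD40L, replicate 3 of PD-1/CTLA4 or replicate 3 of PD-1/LAG3. The CD40 receptor was expressed at a mean of 22.4 CPM in the coupled groups and 18.5 CPM in the controls, and it rose against plain DSLB in 8 of 8 groups (log2 fold change 0.20 to 0.35). TRAF1, a CD40 adaptor and NF-kB target, was at 0.32 in PD-1/CD40L against PD-1 (standard error 0.11, adjusted p = 0.276), and BIRC3, an inhibitor of apoptosis of the same pathway, at -0.07 (adjusted p = 0.777).

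**Figure D5:**
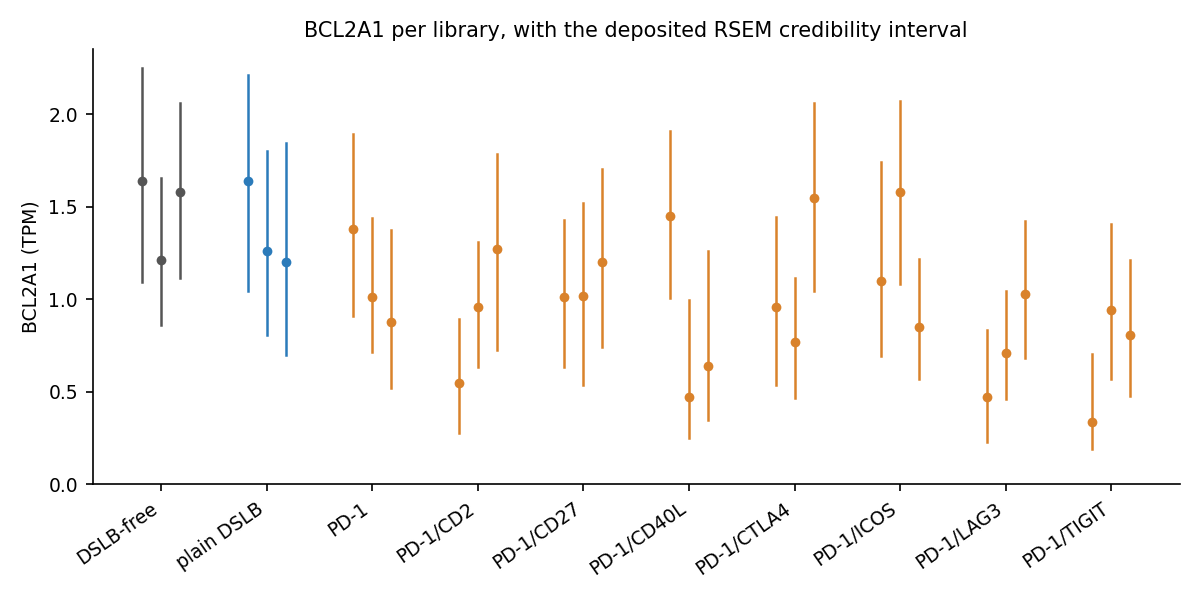
BCL2A1 in TPM by group, with 1 point per library and the credibility interval that RSEM deposited with each value as a line. PD-1/CD40L held 1.45, 0.47 and 0.64 TPM, beside 1.2 to 1.64 TPM in the 6 control libraries, and the intervals of most libraries overlapped.

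The effectors stayed level. BAX had 29.9 to 36.7 CPM in the controls and 28.2 to 38.2 CPM with PD-1, and BAK1 24.1 to 27.3 and 23.6 to 29.7 CPM. Group means of BAX ran from 32.3 ± 3.75 CPM without DSLBs to 35.1 ± 3.3 CPM with PD-1/LAG3, and those of BAK1 from 25.5 ± 2.45 CPM with PD-1/CD2 to 27.6 ± 0.843 CPM with PD-1. The libraries of all neighbouring groups overlapped for both genes. Neither gene was called in any comparison or in any of the alternatives run. The 95% intervals against PD-1 alone reached at most from -0.19 to 0.30 for BAX and from -0.27 to 0.15 for BAK1.

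BID, which caspase 8 cleaves to link death receptors to mitochondria, differed among the 10 groups, with the lowest means in PD-1/CD27 (36 ± 2.09 CPM) and PD-1/CD40L (36.8 ± 1.53 CPM) and the highest in PD-1/LAG3 (43.2 ± 3.34 CPM) and PD-1/TIGIT (45 ± 1.56 CPM). PD-1 alone gave 42.6 ± 0.209 CPM, and both controls (38.5 ± 1.18 and 39.5 ± 1.62 CPM) lay between these extremes. Its direction against plain DSLB was therefore mixed, from -0.14 with PD-1/CD27 to 0.19 with PD-1/TIGIT, without a call in edgeR. PD-1/TIGIT was called higher with the compared libraries only and with DSLB-free as the reference, and PD-1/CD27 and PD-1/CD40L were called lower with the length trend removed. BCL2L11, an activator BH3-only gene with several known splice forms, had 82.2 to 110 CPM in all, with group means from 88.9 ± 7.14 CPM with PD-1/CTLA4 to 103 ± 1.65 CPM with PD-1/ICOS, and its log2 fold change against plain DSLB was between -0.12 and 0.10 with no call in edgeR. Its direction depended on the scale: with the length trend removed it was higher in all 8 groups (0.13 to 0.22) and called in 7, while on log2(TPM + 0.5) it was between -0.39 and 0.04 and called lower in 1, PD-1/CTLA4.

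The comparisons the study was built on set each co-presented protein against PD-1 alone. None of the 10 members was called in any of the 7. The edgeR test called 1.23% of all genes for PD-1/CD2, 2.29% for PD-1/CD27 and, among the rest, 0.0434% for PD-1/CTLA4, 0.0109% for PD-1/CD40L and 0% for PD-1/LAG3, PD-1/TIGIT and PD-1/ICOS. At an unadjusted p under 0.05 there were 2 members for PD-1/CD27 (BCL2L1 and BID) and 2 for PD-1/CD40L (BID and PMAIP1). There was 1 each for PD-1/CD2 (BCL2L1), PD-1/CTLA4 (BCL2) and PD-1/TIGIT (PMAIP1), and 0 for PD-1/ICOS and PD-1/LAG3. Of all 18424 genes, 3134, 2091, 2833, 2445, 681, 1880 and 1052 had such a p, in the same order of groups. DESeq2 called 1 member, BCL2L1 in PD-1/CD27, and the fit of the compared libraries alone called 2 there, BCL2L1 and BID. PMAIP1 was at 0.21 in PD-1/TIGIT (interval 0.03 to 0.39) and at -0.21 in PD-1/CD40L (interval -0.39 to -0.02), neither of which passed the adjustment. For BBC3 the 7 differences lay between -0.17 and 0.03.

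A joint test of any difference among the 8 coupled groups, added after the data were seen, called 0 of the 10 members and 2.88% of all genes. At an unadjusted p under 0.05 there were 4181 of the 18424 genes and 3 members, BID (adjusted p = 0.0819), PMAIP1 (adjusted p = 0.0888) and BCL2L1 (adjusted p = 0.117). DESeq2 called these 3, but it also called 2583 of the 18424 genes where edgeR called 530, and limma-voom called 0 members and 552 genes. Whether the second protein altered their level was not resolved at 3 libraries per group.

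Integration of protein-free synthetic cells was not followed by a called change. Plain DSLB against DSLB-free called 0 of 10 members and 0.0109% of all genes. At an unadjusted p under 0.05 there were 0 members, beside 1123 of all 18424 genes. PMAIP1 was at 0.14 (interval -0.04 to 0.33) and BBC3 at -0.13 (interval -0.37 to 0.11).

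Other genes of the apoptotic machinery give the setting of these values, counted against plain DSLB over the 8 coupled groups. Of all 18424 genes, 1808 to 3134 were called higher and 1806 to 3161 lower in these comparisons. The integrated stress response, in which ATF4 and CHOP switch on a transcription program after eIF2-alpha phosphorylation, was the list that moved most evenly: 7 to 9 of its 9 genes rose in each comparison and 0 fell, with a median log2 fold change of 0.73 to 0.94. SESN2, a stress-induced regulator of mTORC1, rose by 0.79 to 1.03 on the log2 scale, the transcription factor ATF3 by 0.83 to 1.14, and ASNS (asparagine synthetase) by 0.49 to 0.78. In the comparison with both controls ATF4 was at 188 against 136 CPM (adjusted p = 1.06e-08) and DDIT3, which encodes CHOP, at 48.3 against 25.4 CPM (adjusted p = 3.63e-12). These 2 genes were named after their values were seen.

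The p53 list, which shares PMAIP1 and BBC3 as known targets, held calls in both directions. Of its 12 genes 2 to 4 rose and 1 to 3 fell per comparison, with a median log2 fold change of -0.06 to 0.10. The same comparisons called 9.81 to 17% of all genes higher. GADD45A, a stress-inducible growth arrest gene, rose by 0.37 to 0.69 and the death receptor gene TNFRSF10B (DR5) by 0.35 to 0.47, both in 8 of 8 groups. The p53 target ZMAT3 fell in 8 of 8 groups, with log2 fold changes of -0.50 to -0.28. Whether p53 or the integrated stress response had a part in the PMAIP1 and BBC3 values was not tested. In the list of CD40 and NF-kB genes 4 to 6 of 11 tested genes rose and 1 to 3 fell. ICAM1, an adhesion molecule and NF-kB target, rose by 0.31 to 0.69 and NFKB2, a subunit of the non-canonical pathway, by 0.33 to 0.53 in 8 of 8 groups. TRAF1 rose in 6 of 8, PD-1/CD40L among them, with 0.10 to 0.70 over the 8. BIRC3, also in this list, fell in 8 of 8 (-0.44 to -0.23). NFKB1 and TRAF3, named after their values were seen, were the other genes called lower. Against PD-1 alone the only call of this list was TRAF1, higher in PD-1/CD27.

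Downstream of the mitochondria, 1 to 3 of 13 genes of the apoptosome, the caspases and the inhibitors of apoptosis rose and 2 to 6 fell. Over all 18424 genes, 1808 to 3134 rose and 1806 to 3161 fell. CASP8, the initiator caspase of death receptors that cleaves BID, rose in 8 of 8 groups by 0.17 to 0.31, and BIRC3 fell in 8 of 8, with log2 fold changes of -0.44 to -0.23. CASP9, the initiator caspase of the apoptosome, rose in 5 of 8 groups, with log2 fold changes of 0.12 to 0.44 over the 8. Of the other BCL2 family genes 9 of 11 were tested. BCL2L2 (BCL-w), a further survival gene, fell in 6 of 8 groups, with log2 fold changes of -0.37 to -0.09 over the 8. BOK rose in 2 groups and BAD in 1, and BMF rose in PD-1/CD40L and PD-1/LAG3. Against both controls BMF was the only gene of this list called higher, and BCL2L2 and BCL2L13 were called lower. BMF and BCL2L13 were named after their values were seen. All these comparisons again shared the plain DSLB libraries.

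Finally, the genes whose log2 CPM followed the members most closely over the 30 libraries were listed, as a description that shares depth and group structure with the members. For PMAIP1 they were TMBIM4 (r = 0.91), LACTB2 (r = 0.91) and IDI1 (r = 0.89), and for BBC3 CXXC5 (r = 0.89), PLD3 (r = 0.88) and CLDN4 (r = 0.88), out of 13840 genes with a mean count of at least 50. For BID they were MRPL14 (r = 0.90), CDK4 (r = 0.89) and RAB5IF (r = 0.87). BCL2A1, with its few reads, reached only 0.61 with GFOD2, MTAP and LIMS2.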

How the data were processed

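Gene expression was measured by RNA-seq in 30 cultures, 3 in each of 10 groups assigned from the sample labels. The authors trimmed single-end reads of directional libraries, aligned them to hg38 with STAR and quantified genes with RSEM; the submitters' processing notes list SAMtools 1.3.1, Trim Galore 0.3.3 and FastQC 0.11.2. No source used here gives the annotation release or how strand was set in counting. The deposited expected counts are RSEM estimates per gene, left unnormalized by the authors. Their deposited TPM column is scaled for depth and transcript length. RSEM's credibility bounds, posterior deviations and lengths served as descriptions.

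Expected counts were rounded and filtered with filterByExpr, which kept 18424 of 60483 records (56321 records matched a symbol), and TMM factors were computed. All 30 libraries entered 1 edgeR 4.0.16 model (robust quasi-likelihood), with Benjamini-Hochberg adjustment over all genes kept, a threshold of 0.05 and 95% intervals from the same fit. Alternatives used DESeq2 1.42.0, limma 3.58.1, other filters, factors and references, removal of a length trend (spline of 5 degrees of freedom) and left-out libraries. R 4.3.3, Python 3.11.15, pandas 2.3.3 and matplotlib 3.10.9 were used, and the fits were tested on simulated data. Depth was 21.9 to 60.5 M counts per library, and the biological coefficient of variation was 0.0942. The members, gene lists and comparisons were chosen with earlier results of these data known. The pooled comparison, the joint test of the 8 coupled groups and DSLB-free as the reference were added after seeing the data. All 10 members were named, with up to 3 genes per other list (smallest adjusted p first), CD40, TRAF1 and BIRC3, and the 3 genes most correlated with BCL2A1 and with each member that passed the joint test of the 10 groups.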

Additional observations from a re-analysis of the deposited data

How the results depend on the processing

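Where a member had a called fold change in the reported fit, its sign stayed the same in every alternative. BCL2L11, which was not called in that fit, did not keep 1 direction. It was called higher in 7 comparisons with plain DSLB with the length trend removed and lower in 1 on log2(TPM + 0.5). BCL2A1 in PD-1/CD40L against PD-1, which was not called, ranged from -0.81 to 0.06 over 15 alternatives. Over the 8 comparisons with plain DSLB, BBC3 was called in 8 and PMAIP1 in 6. BBC3 was called in 8 with DESeq2, no filter, a mean of at least 100 counts, the replicate number as a block, and without the 4 libraries that stood apart, in 7 with RLE factors, limma-voom and the compared libraries only, in 5 with the length trend removed, in 3 with DSLB-free as the reference (chosen after seeing the data) and in 2 on log2(TPM + 0.5). PMAIP1 was called in 8 with DSLB-free as the reference, in 7 at a threshold of 0.1, in 4 with no filter, in 3 on log2(TPM + 0.5) and otherwise in 5 or 6.

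The count of members called in PD-1/CD27 against PD-1 went from 0 to 1 with DESeq2 and at a threshold of 0.1 and to 2 with the length trend removed and with the compared libraries only. Against plain DSLB, PD-1/CD2 went from 2 to 1 with RLE factors, limma-voom, the compared libraries only and DSLB-free as the reference. PD-1/CD40L went from 1 to 3 with the length trend removed and to 2 without the libraries that stood apart. PD-1/CTLA4 went from 3 to 1 with the length trend removed, and PD-1/LAG3 from 2 to 1 with no filter and with the compared libraries only. PD-1/ICOS went from 1 to 2 with the length trend removed, on log2(TPM + 0.5) and at a threshold of 0.1, and to 3 without the libraries that stood apart and with the compared libraries only. PD-1/TIGIT went from 2 to 4 with the compared libraries only. The 8 coupled groups against both controls went from 3 to 5 on log2(TPM + 0.5). The joint test of the 10 groups went from 3 to 5 with the length trend removed and without the libraries that stood apart. That of the 8 coupled groups went from 0 to 3 with DESeq2 and without the libraries that stood apart, to 1 with no filter and with the length trend removed, and to 2 at a threshold of 0.1. The causes were not tested.

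Leaving out each library in turn gave 0 members in all 7 comparisons with PD-1, in plain DSLB against DSLB-free, and in PD-1/CD40L against the 6 other groups. Against plain DSLB it gave 1 to 2 for PD-1/TIGIT, PD-1/LAG3, PD-1/CD2 and PD-1, 0 to 2 for PD-1/CD27 and PD-1/CD40L, 0 to 1 for PD-1/ICOS and 1 to 3 for PD-1/CTLA4. It gave 2 to 4 for the pooled comparison and the joint test of 10 groups, and 0 to 1 for that of 8 groups. Replicate 1 of plain DSLB changed 6 of these 8 counts (not those of PD-1/CD40L and PD-1/ICOS), replicate 2 those of PD-1/CD2 and PD-1/CTLA4, and replicate 3 those of PD-1/TIGIT, PD-1/CD27 and PD-1/CD2. Replicates 1 and 2 of PD-1/CD2, each replicate of PD-1/CD27, replicates 1 and 3 of PD-1/CD40L and of PD-1/CTLA4, replicate 1 of PD-1/ICOS and replicate 2 of PD-1/TIGIT changed the count of their own group.

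Same replicate numbers showed no clear pairing of the cultures. Deviations of same-numbered libraries correlated at -0.273 to 0.267, beside -0.366 to 0.281 for different numbers. A correlation over 0.1 was seen in 17 of 135 same-numbered pairs and in 22 of 270 others. Of the 30 libraries, 13 correlated best with their own number, and this check cannot exclude pairing. With the replicate number as a block, BBC3 was called in 8 and PMAIP1 in 6 comparisons with plain DSLB, MCL1 was called lower in PD-1/CTLA4, and no count of members moved by over 1.5 times.

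Counts of calls over all genes also moved by over 1.5 times. Under the alternatives other than leaving out 1 library, those against PD-1 ranged from 6 to 828 for PD-1/CD2 (227 as reported), 55 to 1290 for PD-1/CD27 (421), 1 to 481 for PD-1/CD40L (2), 2 to 1198 for PD-1/CTLA4 (8), and 0 to 442, 0 to 288 and 0 to 126 for PD-1/ICOS, PD-1/LAG3 and PD-1/TIGIT (0 each). They ranged from 0 to 199 for plain DSLB against DSLB-free (2), 1 to 262 for PD-1/CD40L against the 6 others (5) and 160 to 3622 for the joint test of the 8 coupled groups (530). Against plain DSLB the compared libraries only gave 6138 for PD-1 (4054), 6695 for PD-1/ICOS (3614) and 7080 for PD-1/TIGIT (4140). Depth limits BCL2 and BCL2A1, at 0 to 43 reads per library.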
